A study of Homo sapiens with 12 samples.

Results

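The comparison is the response of the control bladder cancer line HT1376 CT to interferon γ (IFNγ). Its members are 6 RNA-seq libraries of the 12 in the series, chosen by their labels alone: 3 of untreated HT1376 CT cells and 3 of HT1376 CT cells given IFNγ. The other 6 libraries, from HT1376 FOXP3 KO cells, were not used in the main comparison. HT1376 is an established human line from a bladder carcinoma. The study describes HT1376 CT as a clonal line, grown from a single cell after CRISPR/Cas9 with a control guide against luciferase, so it carries Cas9 treatment without a targeted human gene, and the labels call it WT. The labels name no clone, so whether 1 clone supplied all 6 libraries is not stated. The study's methods give IFNγ at 100 ng/mL and 48 hours. The libraries carry the numbers 11, 12 and 13 in each group. Nothing states that they came from separate cultures, so the p-values measure the spread between these libraries, which may be technical.

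IFNγ is a cytokine of T cells and natural killer cells. It binds the receptor pair IFNGR1 and IFNGR2, whose kinases JAK1 and JAK2 phosphorylate transcription factors of the STAT family. STAT dimers bind the gamma-activated site (GAS) and switch on a first set of genes, among them IRF1 and CIITA, which in turn drive later genes. A complex that holds STAT2 and IRF9 binds a second element, the interferon-stimulated response element (ISRE). In epithelial cells the response is known for antigen presentation, chemokines that draw T cells, antiviral proteins, the checkpoint ligand PD-L1 and a slowing of growth.

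The letters of both elements stand in the promoters of several genes that rose here. Each promoter is the 300 bases from 250 before to 50 after a RefSeq transcription start on GRCh38.p14. GAS was searched as TTCNNNGAA, which reads the same on both strands, and ISRE as GAAA, any 2 bases and GAAA again, on both strands. The 2 patterns can share bases, and 154 promoters held both. Of all 35116 promoters, 7.66% held the GAS letters and 3.57% the ISRE letters. A promoter was found by gene name for 67.5% of the genes called higher, below the 80% needed for a share over that set, so no such share is given. The windows of 30 bases below come from regulators and effectors named in the results, chosen among those with a match. Named genes without the letters are neither shown nor counted. Each window is written 5′ to 3′ on the gene's strand, with the letters of the named match in capitals. In B2M a second ISRE match, from base -138, overlaps the one shown and is not capitalized. Genes that fell can hold the letters too, as THBS1 does (GAS, match from base -207). A match is a run of letters, not a measured binding site.
IRF1 (GAS, chr5:132490878-132490907, minus strand, match from base -124): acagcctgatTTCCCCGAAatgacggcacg
IRF9 (GAS, chr14:24161192-24161221, plus strand, match from base -63): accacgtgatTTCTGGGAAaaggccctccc
ICAM1 (GAS, chr19:10271035-10271064, plus strand, match from base -75): ggcgcgaggtTTCCGGGAAagcagcaccgc
WARS (GAS, chr14:100375470-100375499, minus strand, match from base -142): gctcaagtgtTTCTGAGAAtctgggtgatt
WARS (ISRE, chr14:100375383-100375412, minus strand, match from base -55): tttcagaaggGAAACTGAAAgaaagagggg
GBP1 (ISRE, chr1:89065316-89065345, minus strand, match from base -127): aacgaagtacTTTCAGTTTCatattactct
CXCL10 (ISRE, chr4:76023699-76023728, minus strand, match from base -221): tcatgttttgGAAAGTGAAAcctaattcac
PSMB8 (ISRE, chr6:32844032-32844061, minus strand, match from base -4): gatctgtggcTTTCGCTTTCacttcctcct
B2M (ISRE, chr15:44711363-44711392, plus strand, match from base -144): gagactctaaGAAAAGGAAActgaaaacgg

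The untreated libraries held 12705778 to 39270042 counts and the IFNγ libraries 4490684 to 19194488, and within each number the IFNγ library was the shallower, IFNγ library 12 being the shallowest of the 6. MALAT1, a nuclear long noncoding RNA, took the most counts in each of the 6 libraries, between 2.39% and 3.88%. Mitochondrial genes took between 3.10% and 3.63%. FOXP3 stood at 0 or 1 count in each HT1376 CT library examined and was not tested. Keratins of urothelium were present, with KRT8 at 1098 CPM and KRT18 at 1436 CPM on average in untreated cells (CPM are counts scaled to a common library size after TMM normalization). The uroplakin gene UPK1B was at 513 CPM, with an adjusted p of 0.0881 for a log2 fold change of -0.36 (0.0296 without IFNγ library 11, and called with the block), whereas UPK3A was at 0 in the 6 libraries and UPK1A, FOXA1 and KRT20 did not reach the 10 counts needed for testing. Of 7 T cell markers 2 (CD2 and TRAC) were at 0 in the 6 libraries, and the 2 that were tested summed to 0.613 to 1.21 CPM untreated and 0.837 to 1.59 CPM with IFNγ. Of 4 B cell markers 1 was tested, at 0.056 to 0.531 CPM untreated and 0.453 to 0.744 CPM with IFNγ. The 5 myeloid markers tested summed to 3.90 to 5.09 CPM untreated and 3.81 to 6.98 CPM with IFNγ, and the macrophage marker CD68 was at 0 in the 6 libraries.

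IFNγ changed 1307 of the 24416 genes tested at an adjusted p under 0.05 (edgeR quasi-likelihood test, Benjamini-Hochberg), which is 5.35% of them. Of these, 862 were higher (3.53% of the genes tested) and 445 were lower (1.82%). The increases were larger than the decreases, with a median log2 fold change of 1.54 among the genes that rose and -0.74 among those that fell, beside -0.019 over all genes tested. The genes that rose took 5.22% to 5.61% of counts in the untreated libraries and 12.7% to 14.2% with IFNγ. The genes that fell took 5.18% to 5.32% untreated and 2.93% to 3.33% with IFNγ. Within the 3 numbers taken singly, 860 of the 862 genes moved upward in each and 445 of the 445 downward in each. Of all 24416 genes tested, 11132 kept 1 direction in the 3 numbers. The calls were made on the same libraries, so this agreement is not independent of them. Treating the number as a block moved the count to 4530, or 18.6% of the genes tested (2118 higher, 8.67%, and 2412 lower, 9.88%), and each of the 1307 genes kept its call and direction there. The genes added by the block had a median absolute log2 fold change of 0.46 for increases and 0.42 for decreases. Some changed more: increases of 1 to 2 on the log2 scale numbered 231 without the block and 413 with it. Decreases of 1 to 2 numbered 92 and 223, and those beyond 2 numbered 17 and 47, genes at the floor included. With an absolute log2 fold change over 1 required as well, 679 genes passed (2.78%). The count was smaller without untreated library 11 (808), untreated library 13 (839) or IFNγ library 13 (761), and the count of lower genes was also smaller without untreated library 12 (273). Without number 13 in both groups, 370 genes passed, of which 30 were lower.

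**Figure D1:**
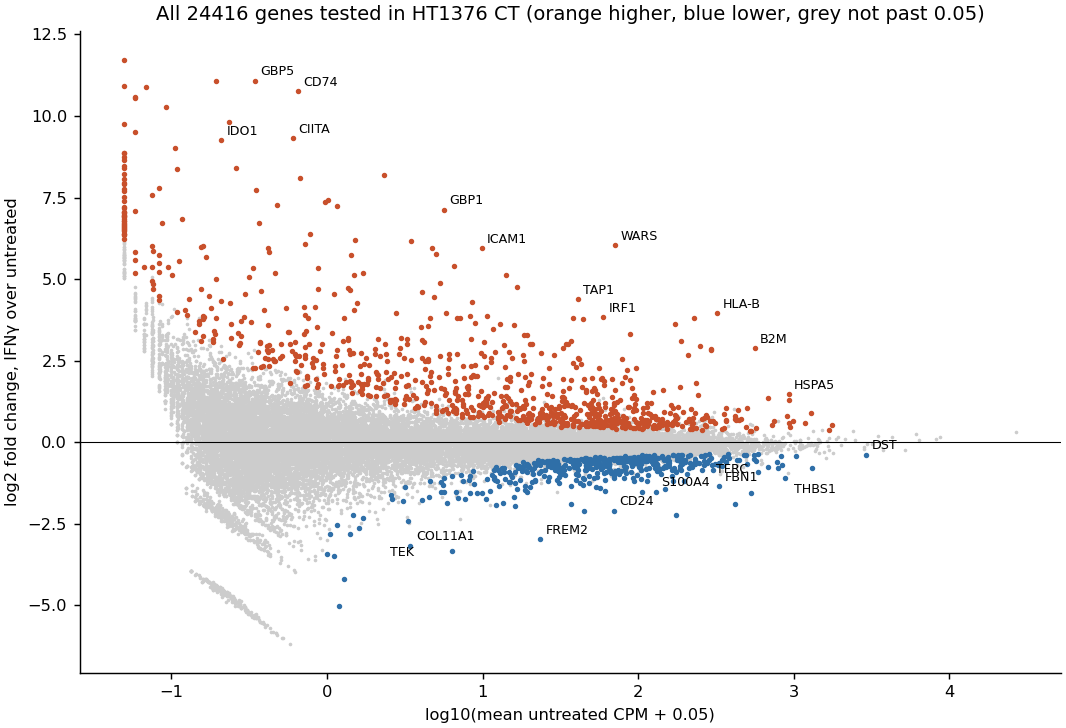
Log2 fold change (vertical) against the untreated level as log10 of mean CPM plus 0.05 (horizontal) for the 24416 genes tested, 3 libraries against 3; orange points are higher, blue points lower and grey points did not pass an adjusted p of 0.05. The largest increases start from low untreated levels, as for GBP5 and CD74 near 11 on the log2 scale, while WARS, HLA-B and B2M rise from higher levels; the column at the left edge holds genes with no untreated count, whose fitted values are not bounds.

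The increases fell into size classes that differed in their starting level. The class above 8 on the log2 scale held 9 genes, the class from 6 to 8 held 15, that from 4 to 6 held 43, that from 2 to 4 held 197, that from 1 to 2 held 231 and that up to 1 held 292. A further 75 genes had 3 counts or fewer in each untreated library and are kept apart, because a fold for them depends on a prior count. The median untreated level rose as the class became smaller: 0.294 CPM above 8, 0.732 CPM from 6 to 8, 0.792 CPM from 4 to 6, 2.13 CPM from 2 to 4, 13.1 CPM from 1 to 2 and 64.2 CPM up to 1. Under IFNγ the median level was highest in the class above 8, at 299.9 CPM, and lowest in the class from 2 to 4, at 12.9 CPM. CPM is not divided by gene length, and the median exon length of these classes ran from 4039 to 5832 bases. A small change passes the test only with enough counts, and the share of depth in this order was not tested. The decreases were of another size: 336 genes fell by up to 1 on the log2 scale, 92 by 1 to 2 and 11 by more than 2, and 6 genes were at 3 counts or fewer in each IFNγ library. Thus 336 of 445 decreases, 75.5%, were below 2-fold, against 292 of 862 increases, 33.9%. With the block, 1293 increases and 2142 decreases were of up to 1 on the log2 scale. Counted with the genes at the floor, 27 increases were above 8 in either fit.

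**Figure D2:**
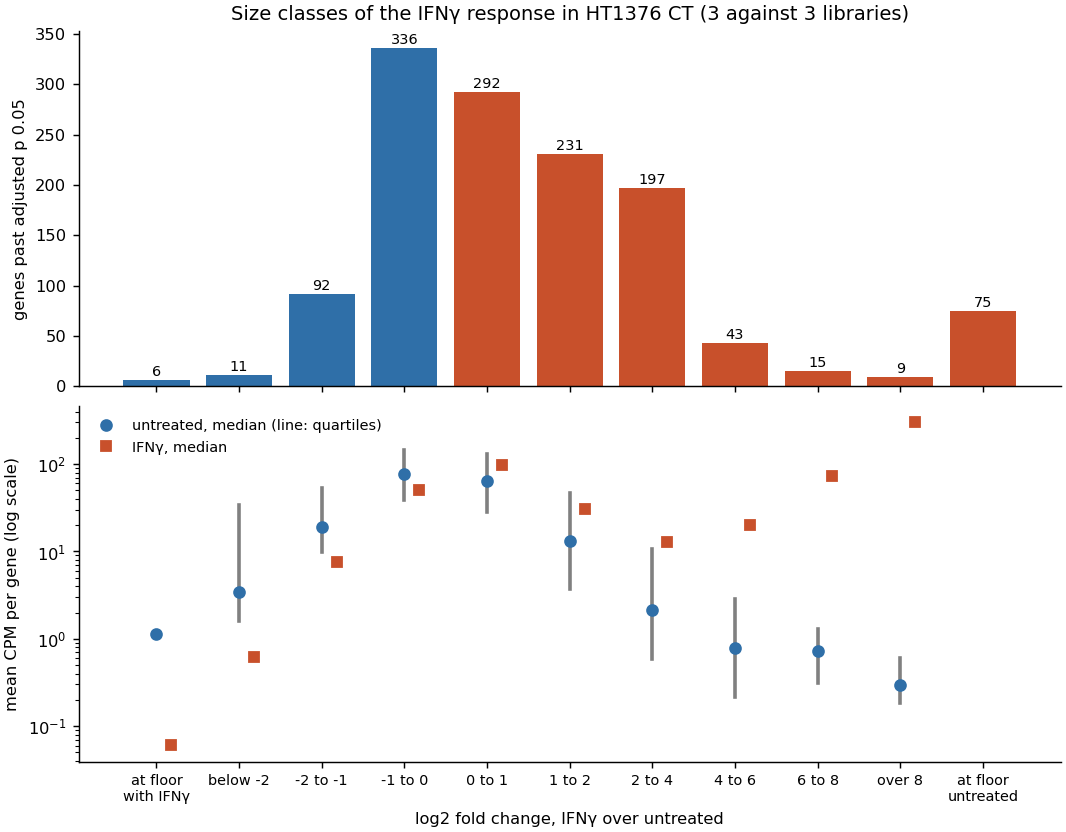
Number of genes past an adjusted p of 0.05 in each class of log2 fold change (upper panel) and the median of the genes' mean CPM on a log scale (lower panel; blue circles untreated with a grey line for the quartiles, orange squares IFNγ). The class from -1 to 0 holds 336 genes and the class above 8 holds 9; untreated medians fall from 64.2 CPM in the class from 0 to 1 to 0.294 CPM above 8, and the 75 genes at the untreated floor have no marker because their untreated median is 0.

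The 9 genes above 8 were GBP5, HLA-DRA, CD74, HLA-DRB1, CIITA, IDO1, HLA-DPB1, GBP4 and C1S. Membership depended on the setting, since under at least 1 alternative GBP4 (7.68), C1S (7.57) and HLA-DPB1 (7.78) fell below 8. GBP5 ran from 10.65 to 12.11 over the alternatives. All 9 are protein coding, and 5 of them belong to the MHC class II pathway. Each had at most 4.85 CPM in an untreated library, the value of GBP4 in number 12, and at least 50.9 CPM in an IFNγ library, that of HLA-DPB1 in number 11. Among the 75 genes at the untreated floor, 40 were protein coding (53.3%), 21 were long noncoding and 10 were pseudogenes. Of all 24416 genes tested 59.1% were protein coding, 5621 were long noncoding and 2631 were pseudogenes, so the make-up at the floor was near that of all genes. The class up to 1, which starts from a higher level, was 94.5% protein coding. In terms of counts gained rather than fold, the response was concentrated. The 10 genes with the largest gain in CPM made up 31.2% of the total gain of the 862 genes, the first 50 made up 59.0% and the first 100 made up 71.3%. Among those 10 were, from the largest gain down, HLA-B, WARS, B2M, HLA-E, RNF213, PARP14, HSPA5 and HLA-C. A long transcript counts for more in such a sum. The loss, over 445 genes, was less concentrated by the same counts. The 10 genes that lost most held 20.6% of it, the first 50 held 46.8% and the first 100 held 64.0%.

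Genes that rose were often neighbours. Of the 858 with a position in GENCODE 44 on GRCh38, 236 (27.5%) lay next to another gene that rose, among the genes tested, against 6.65% of all genes tested. For genes that fell the values were 5.62% and 3.58%. The longest run was 11 adjacent genes on chromosome 1 (88979456 to 89426243), and it held GBP1 to GBP7 and the pseudogene GBP1P1. A run of 6 on chromosome 6 (32517353 to 32747198) held HLA-DRB5, HLA-DRB6, HLA-DRB1, HLA-DQA1, HLA-DQB1 and HLA-DQA2 (whose call was lost without any of 5 libraries, adjusted p up to 0.157), and another of 6 (32812763 to 32859851) held HLA-DOB, TAP2, PSMB8, PSMB8-AS1, PSMB9 and TAP1. Further runs were APOL1 to APOL4 on chromosome 22 (36137430 to 36267530), C1S, C1R and C1RL on chromosome 12 (6988259 to 7158945), OAS1, OAS3 and OAS2 on the same chromosome (112905856 to 113136239) and SP110, SP140, SP140L and SP100 on chromosome 2 (230165186 to 230545606). Several of these are families of close copies, and the strand setting of the counting and its handling of reads that fit several genes are not given in the sources used here. Values of single HLA, GBP, APOL and C4 genes, and of genes that overlap an antisense partner such as PSMB8, are uncertain for that reason.

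The lists that follow are read against the 3.53% of all genes tested that were called higher and the 1.82% called lower. Lists can differ in level from all genes tested, and no genes of a matched level were compared. Counts with the block are read against the shares of that fit over all genes tested, 8.67% higher and 9.88% lower. Adjusted p-values of the block fit can be far smaller than with the bias-adjusted deviance of edgeR added. For CD274 they were 3.71e-38 and 0.000349, and for TNF 2.09e-14 and 0.000575. The block values rest on 3 libraries per group, and their size is not read as strength. Where none of a list fell, DESeq2 called none lower either, except ETV4 among ERK targets, and at an unadjusted p under 0.05 between 0 and 8 members were lower, the 8 being epithelial junction genes.

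The signal path itself changed below the receptor. Of the 10 receptor and JAK-STAT genes tested, 6 rose, STAT2, STAT5A, JAK2, STAT3 and TYK2 among them, and none fell, with a list median of 0.69. STAT2, a subunit of the ISRE complex, went from 35.8, 38.5 and 39.6 CPM in untreated libraries 11, 12 and 13 to 188, 239 and 185 CPM (log2 fold change 2.42, SE 0.13, adjusted p = 3.51e-07). JAK2 rose by 1.36 (SE 0.14) and STAT3 by 0.79 (SE 0.10) on the same scale. STAT5A and TYK2 each lost the call without any of 4 libraries (adjusted p up to 0.141 and 0.0957). The receptor subunits did not pass the test. IFNGR1 differed by -0.25 (SE 0.14, adjusted p = 0.408) and passed with the block (adjusted p = 0.0359) but not when the bias-adjusted deviance was added to it, IFNGR2 by 0.07 (SE 0.13, adjusted p = 0.838) and JAK1 by -0.06 (SE 0.12, adjusted p = 0.853).

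Of 9 interferon regulatory factor genes tested, with BATF2 among them, 7 rose and none fell (list median 1.64). IRF1, whose promoter holds the GAS letters printed above, was at 54.2, 64.6 and 60.5 CPM untreated and at 836, 839.7 and 874 CPM with IFNγ. Both groups were tight and far apart (log2 fold change 3.83, SE 0.11, adjusted p = 1.74e-09). BATF2, a partner of IRF1, rose from 2.45, 0.910 and 1.05 to 105, 104 and 108 CPM (log2 fold change 6.19, SE 0.28). IRF9, the DNA-binding subunit of the ISRE complex, rose from 2.51, 1.52 and 1.33 to 7.62, 6.80 and 6.50 CPM (log2 fold change 1.98, SE 0.32, adjusted p = 0.0029). The IRF9 call was lost without number 13 (adjusted p = 0.0969). IRF8, best known from blood cells, had no count in the untreated libraries and 4, 4 and 20 counts with IFNγ, at least 5.01-fold higher against a floor of 3 counts in each library, and its call was lost without untreated library 13 (adjusted p = 0.0751). Without IFNγ library 13 it fell below the 10 counts needed and was not tested. Among 10 inhibitors of the pathway, 3 rose (SOCS1, SOCS3 and USP18) and none fell without the block, with a list median of 0.32. SOCS1, which binds and inhibits JAK kinases, went from 5.57, 2.96 and 5.17 to 23.5, 15.9 and 16.7 CPM (log2 fold change 2.02, SE 0.26, adjusted p = 0.00059). SOCS3 rose by 1.72 (SE 0.22) and USP18, which restrains type I interferon signalling, by 2.02 (SE 0.23) on the log2 scale. With the block, 5 inhibitors were higher and 2 lower.

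All 8 MHC class I genes tested rose, with a list median of 3.44. Among them, HLA-B and HLA-C encode molecules that show peptides from inside the cell to CD8+ T cells. HLA-B was at 156, 489 and 317 CPM untreated and 4623, 5370.2 and 4870.2 CPM with IFNγ. The lowest treated library exceeded the highest untreated library, and the untreated ones differed among themselves, number 12 being the highest (log2 fold change 3.95, SE 0.32, adjusted p = 1.51e-05). HLA-C rose by 3.09 (SE 0.18) and HLA-E by 2.86 (SE 0.13). B2M, the light chain that the class I molecules share, went from 450.4, 685 and 549 to 3806, 4619 and 3908 CPM (log2 fold change 2.87, SE 0.15, adjusted p = 2.74e-07). NLRC5, the transactivator of class I genes, rose from 5.46, 13.6 and 6.57 to 174, 146 and 172 CPM (log2 fold change 4.30, SE 0.28, adjusted p = 2.13e-06). HLA-G rose least, by 1.06 (SE 0.26, adjusted p = 0.038), and its call was lost without untreated library 11 or 13 or IFNγ library 12 or 13 (highest adjusted p = 0.165), and also by DESeq2, with filterByExpr and in the fit of all 12 libraries (up to 0.292), so that DESeq2 called 7 of the 8 genes higher.

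The machinery that cuts and loads peptides followed, with 14 of 15 genes higher, none lower and a list median of 1.96. TAP1, a subunit of the peptide transporter, was at 30.5, 44.6 and 47.5 CPM untreated and 831, 819 and 899 CPM with IFNγ (log2 fold change 4.38, SE 0.17, adjusted p = 1.91e-08). Its partner TAP2 rose less, from 37.2, 34.4 and 39.5 to 144, 138 and 137 CPM (log2 fold change 1.91, SE 0.11). The 3 inducible proteasome subunits rose together: PSMB9 by 3.59 (SE 0.22), PSMB10 by 2.87 (SE 0.25) and PSMB8 by 2.59 (SE 0.12). The exception was PSME3, the nuclear proteasome activator, at -0.22 (SE 0.11, adjusted p = 0.324), which was called lower with the block (adjusted p = 0.0193).

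MHC class II was the list with the highest median, 8.41. It was 7.37 when the member with no untreated count was set at its bound, which is below the 7.41 of the guanylate-binding proteins taken the same way. Of 17 genes tested 15 rose and none fell. The 2 that did not pass were the regulators RFXANK (log2 fold change 0.16, SE 0.16, adjusted p = 0.693) and its partner RFXAP in the RFX complex (0.14, SE 0.34, adjusted p = 0.892). CIITA (chr16:10866222-10943021, plus strand), the master transactivator of class II genes, was at 0.613, 0.834 and 0.226 CPM untreated and 282, 305 and 313 CPM with IFNγ (log2 fold change 9.33, SE 0.28, adjusted p = 3.03e-09). RFX5, which works with CIITA, rose from 67.4, 69.4 and 76.9 to 207, 218 and 215 CPM (log2 fold change 1.58, SE 0.10). CD74 (chr5:150401637-150412969, minus strand), the invariant chain that guides class II molecules, went from 0.501, 0.379 and 0.928 to 1131, 1291 and 1216 CPM (log2 fold change 10.77, SE 0.23, adjusted p = 5.93e-10). The 3 treated libraries lay within a narrow band, and none of the untreated ones reached 1 CPM. HLA-DRA, the α chain of HLA-DR, had 0, 3 and 8 counts untreated and 3557, 1618 and 6362 counts with IFNγ (log2 fold change 11.07, SE 0.29). HLA-DMB, which helps to exchange peptides, had 1 count over the untreated libraries and 31.9, 34.0 and 28.8 CPM with IFNγ, a pooled ratio of 2163.1 with a 95% counting interval from 387 to 85522. HLA-DOA, a modulator of that exchange, also had 1 count untreated and 39.4, 41.5 and 41.8 CPM with IFNγ (ratio 2912, interval 522 to 115080). HLA-DRB5 had no untreated count and was at least 21.7-fold higher.

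Guanylate-binding proteins, GTPases that attack vacuoles of intracellular microbes, rose in 7 of 7 cases (list median 7.79, or 7.41 with GBP7 at its bound). GBP5 (chr1:89256189-89272860, minus strand) was at 0, 0.379 and 0.501 CPM untreated and 650.0, 819 and 799 CPM with IFNγ (log2 fold change 11.08, SE 0.37, adjusted p = 6.99e-09). GBP4 went from 0.223, 4.85 and 1.81 to 567, 715 and 568 CPM (log2 fold change 8.19, SE 0.56), GBP1 from 4.29, 5.54 and 6.97 to 841, 733 and 811 CPM (log2 fold change 7.12, SE 0.19) and GBP2 from 0.724, 1.14 and 1.05 to 162, 199 and 143 CPM (log2 fold change 7.41, SE 0.21). GBP3 had the smallest fold of the family, from 8.86, 10.8 and 10.7 to 56.0, 71.6 and 63.1 CPM (log2 fold change 2.65, SE 0.15). GBP7 had no untreated count and was at least 19.4-fold higher. The 5 apolipoprotein L genes tested also rose (median 3.0), from APOL2 with a log2 fold change of 2.28 (SE 0.15) to APOL4, which had 0, 0 and 3 counts untreated and 109, 38 and 158 with IFNγ. APOL1, the trypanosome lytic factor of human serum, went from 29.1, 41.3 and 35.7 to 251, 319 and 279.6 CPM (log2 fold change 3.0, SE 0.15).

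**Figure D3:**
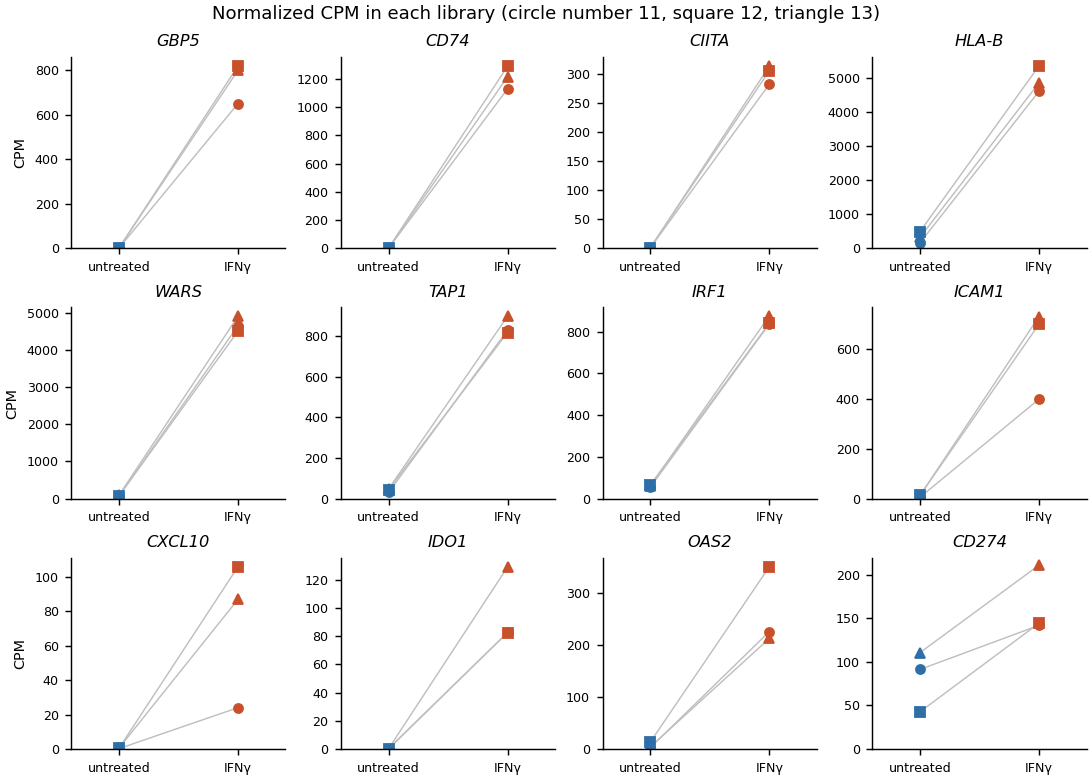
Normalized CPM of 12 genes in each library (vertical, from 0), untreated in blue and IFNγ in orange, with lines that join libraries of the same number. GBP5, CD74 and CIITA leave a level near 0 in each number; CXCL10 and ICAM1 are lowest in IFNγ library 11, OAS2 is highest in number 12, and for CD274 the untreated libraries reach 110.4 CPM while the lowest IFNγ library is at 142 CPM.

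Of 40 antiviral genes tested, which are shared with the type I interferon response, 38 rose and none fell (list median 2.57). The 2 that did not pass were HERC5, an ISG15 ligase (log2 fold change 1.16, SE 0.30, adjusted p = 0.0505), which passed with the block (2.06e-24), by DESeq2 (0.00278), with a filter at 1 count and without IFNγ library 11, untreated library 12 or number 12, and IFITM2, an entry inhibitor (0.09, SE 0.19, adjusted p = 0.881). The summed level of the 40 genes was 2295, 2905 and 2248 CPM in untreated libraries 11, 12 and 13 and 10426, 13161 and 9890 CPM with IFNγ, so number 12 was highest in both groups. OAS2, which makes the activator of RNase L, showed this in a single gene: 2.34, 13.3 and 3.94 CPM untreated and 225, 349.7 and 212 CPM with IFNγ (log2 fold change 5.41, SE 0.51, adjusted p = 4.64e-05). IFI44L was at 0.279, 1.29 and 0.627 CPM untreated and 31.1, 117 and 28.4 CPM with IFNγ (log2 fold change 6.39, SE 0.65). Over the alternatives its log2 fold change ran from 5.44 to 6.81. MX1, a GTPase against influenza viruses, went from 25.3, 59.5 and 26.2 to 232, 494 and 230.1 CPM (log2 fold change 3.11, SE 0.37) and ISG15, a ubiquitin-like modifier, from 7.30, 13.7 and 8.10 to 50.9, 91.1 and 49.4 CPM (log2 fold change 2.72, SE 0.28). TRIM22 had the largest change of the group, from 0.780, 2.12 and 0.451 to 131, 189 and 102 CPM (log2 fold change 7.23, SE 0.42, adjusted p = 7.78e-07). PARP14, an ADP-ribosyltransferase, rose from 216, 305 and 231 to 1735, 2222 and 1803 CPM (log2 fold change 2.94, SE 0.15), and RNF213, a large ubiquitin ligase outside the list, from 249, 333 and 302 to 2144, 1822 and 2266 CPM (log2 fold change 2.82, SE 0.13).

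Chemokines and cytokines were read as 2 lists, by the cells they address. Of 16 genes that draw or sustain lymphocytes, 12 rose and none fell (list median 3.13, or 3.07 with the 2 members lacking untreated counts at their bounds). With the block 14 were higher and none lower. CXCL9, CXCL10 and CXCL11 are the ligands of CXCR3 on T cells. CXCL9 had no untreated count and 55, 90 and 313 counts with IFNγ, at least 90.1-fold higher. CXCL10 was at 0.167, 0.303 and 0.426 CPM untreated and 24.0, 106 and 86.9 CPM with IFNγ (log2 fold change 7.73, SE 0.60, adjusted p = 9.83e-06), and CXCL11 went from 0.279, 0.531 and 0.301 to 9.58, 30.8 and 26.5 CPM (log2 fold change 5.97, SE 0.49). For each of the 3 ligands, IFNγ library 11 was the lowest of the treated libraries. IL32, an inflammatory cytokine, rose from 9.25, 12.7 and 20.2 to 344, 519 and 632 CPM (log2 fold change 5.13, SE 0.30), and IL15, a growth factor of natural killer and memory T cells, from 3.34, 5.92 and 3.33 to 16.9, 22.9 and 19.1 CPM (log2 fold change 2.24, SE 0.25). Of 11 chemokines and cytokines that address neutrophils or general inflammation, 2 rose, CXCL2 and TNF, and none fell (list median 0.88, with the block 4 higher). CXCL2 went from 1.0, 1.21 and 1.20 to 3.81, 5.21 and 2.90 CPM (adjusted p = 0.0159) and TNF from 6.91, 7.89 and 15.4 to 15.3, 28.8 and 27.6 CPM (adjusted p = 0.0491). Both calls depended on single libraries: CXCL2 lost it without untreated library 11 or 13 (highest adjusted p = 0.0695), and TNF without untreated library 11 or 12 or IFNγ library 12 or 13 (highest 0.195), in the fit of all 12 libraries (0.0862), with filterByExpr (0.0642) and with the bias-adjusted deviance (0.0658). The groups of TNF overlapped. CXCL1 did not pass, at 0.167, 0.834 and 0.501 and 0.279, 2.27 and 1.83 CPM (adjusted p = 0.345), but passed in the block fit that used the bias-adjusted deviance (0.022). CXCL8, the neutrophil chemokine IL-8, had 18, 38 and 92 counts untreated and 10, 49 and 51 with IFNγ (log2 fold change 1.09, SE 0.71, adjusted p = 0.48), and without IFNγ library 12 its value was -0.11. The difference between the 2 lists was not tested.

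Of 14 checkpoint and costimulatory ligands tested, 5 rose, 1 fell and the median was 0.89. With the block, 10 were higher and 2 lower. PDCD1LG2, which encodes PD-L2, was at 12.2, 8.49 and 15.1 CPM untreated and 86.9, 69.6 and 88.7 CPM with IFNγ (log2 fold change 2.76, SE 0.20, adjusted p = 4.17e-06). CD274 (chr9:5450503-5470566, plus strand), which encodes PD-L1, was at 91.1, 42.5 and 110.4 CPM untreated and 142, 144 and 211 CPM with IFNγ. The groups did not overlap, but the untreated libraries differed 2.6-fold among themselves, number 12 being the lowest. The log2 fold change was 1.02 (SE 0.28) and missed the threshold (adjusted p = 0.0619). CD274 was called higher with the block (adjusted p = 3.71e-38, or 0.000349 with the bias-adjusted deviance added). Without the block it was called by DESeq2 (0.00474), with upper-quartile normalization (0.0491), with a filter at 1 count, without untreated library 13 (0.0409) and without number 12 (0.0362). CEACAM1, a ligand of TIM-3, behaved likewise, with 215, 278 and 396 CPM untreated and 387, 501 and 623 CPM with IFNγ, groups that overlapped, and a log2 fold change of 0.77 (SE 0.21, adjusted p = 0.0653). CEACAM1 was called with the block (adjusted p = 4.68e-32, or 2.45e-06 with the bias-adjusted deviance added), by DESeq2 (0.0112), with a filter at 1 count and without IFNγ library 11 (0.0284) or untreated library 13 (0.0177). CD40, the costimulatory receptor, rose from 11.7, 12.7 and 17.3 to 68.9, 65.7 and 73.6 CPM (log2 fold change 2.31, SE 0.16). TNFRSF14 rose by 2.56 (SE 0.34), LGALS9, or galectin-9, by 2.06 (SE 0.29) and CD47, the signal against phagocytosis, by 1.33 (SE 0.12). Without number 13, TNFRSF14 (adjusted p = 0.0695) and LGALS9 (0.0652) lost their calls. VSIR, which encodes VISTA, was the member that fell, from 45.1, 43.3 and 54.0 to 35.7, 31.3 and 32.8 CPM (log2 fold change -0.51, adjusted p = 0.0484), and leaving out any of the 6 libraries ended that call (adjusted p up to 0.216), as did the fit of all 12 (0.29), RLE or upper-quartile normalization (0.0501 and 0.0503) and the bias-adjusted deviance (0.0502).

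Of 10 genes of tryptophan metabolism 3 rose and none fell (list median 0.40, with the block 4 higher and 1 lower, the latter not with the bias-adjusted deviance added), and these 3 consume or use tryptophan or its products. IDO1, which opens the kynurenine pathway, was at 0, 0.303 and 0.176 CPM untreated and 82.7, 82.7 and 129 CPM with IFNγ (log2 fold change 9.25, SE 0.39, adjusted p = 4.3e-08). WARS (chr14:100333790-100376805, minus strand), the tryptophanyl-tRNA synthetase, went from 59.9, 67.8 and 86.5 to 4649, 4502 and 4899.9 CPM (log2 fold change 6.03, SE 0.15, adjusted p = 1.17e-09). KYNU, or kynureninase, went from 7.35, 10.1 and 13.8 to 14.2, 42.2 and 25.8 CPM (adjusted p = 0.0432), and leaving out any library but IFNγ library 11 ended the call (adjusted p up to 0.152), as did filterByExpr (0.0631) and the bias-adjusted deviance (0.0588).

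Cell death genes rose in 12 of 20 cases with none lower (list median 0.96, with the block 16 higher). ZBP1, a sensor of Z-form nucleic acid, was at 0, 0.0758 and 0.125 CPM untreated and 5.49, 12.0 and 12.9 CPM with IFNγ (log2 fold change 6.83, SE 0.58). CASP1, the inflammasome protease, rose from 10.1, 16.8 and 11.6 to 154, 175 and 147 CPM (log2 fold change 3.63, SE 0.18), FAS, a death receptor, from 6.91, 8.72 and 6.79 to 36.9, 41.0 and 34.4 CPM (log2 fold change 2.33, SE 0.16), and MLKL, the effector of necroptosis, from 12.4, 16.3 and 14.0 to 47.3, 60.3 and 55.6 CPM (log2 fold change 1.93, SE 0.15). Complement genes rose in 7 of 14 cases with none lower without the block (list median 1.72, with it 9 higher and 2 lower). C1S, a protease of the classical pathway, was at 0.613, 0.834 and 0.426 CPM untreated and 119.8, 152 and 197 CPM with IFNγ (log2 fold change 8.09, SE 0.27, adjusted p = 6.99e-09). SERPING1, which inhibits C1S, rose beside it from 0.334, 0.379 and 0.577 to 75.0, 75.2 and 71.4 CPM (log2 fold change 7.28, SE 0.20). C3 did not pass, with overlapping groups of 5.01, 19.0 and 13.4 and 16.1, 87.0 and 46.3 CPM (adjusted p = 0.058), and passed with the block (adjusted p = 3.79e-49), in the fit of all 12 libraries (0.0324), with a filter at 1 count and without IFNγ library 11 (0.00669) or number 11.

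**Figure D4:**
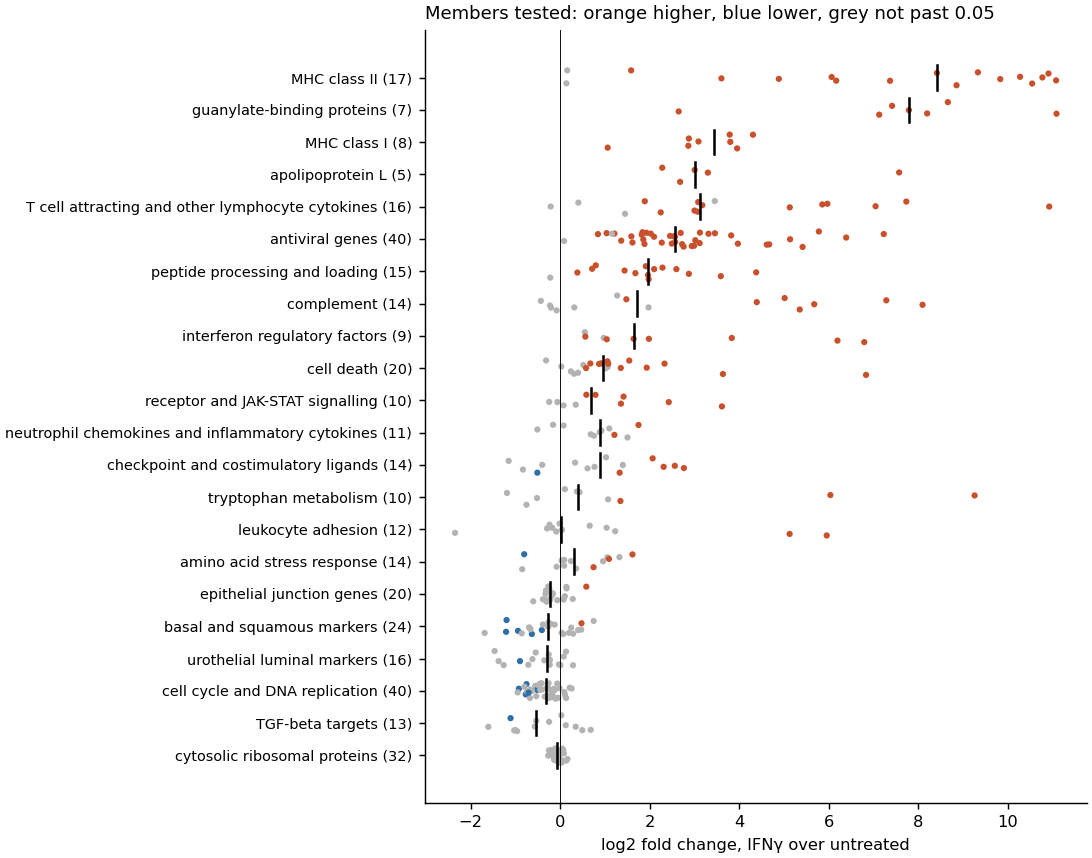
Log2 fold change of each tested member of 22 gene lists (horizontal), with the number tested in brackets and a black bar at the list median; orange members are higher, blue lower and grey did not pass an adjusted p of 0.05. The medians run from 8.41 for MHC class II to -0.54 for TGF-β targets, and ribosomal protein genes lie close to 0.

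Among 12 leukocyte adhesion genes 2 rose, ICAM1 and ICAM4, and the list median was 0.012, with 3 higher and 1 lower under the block. ICAM1 (chr19:10271093-10286615, plus strand), the ligand of LFA-1, was at 4.90, 12.7 and 11.8 CPM untreated and 398, 697 and 728 CPM with IFNγ (log2 fold change 5.95, SE 0.36, adjusted p = 8.72e-07). ICAM4 reached 0.558, 2.27 and 1.45 CPM, and its call was lost without untreated library 11 or 13 or IFNγ library 12 or 13 (adjusted p up to 0.119). MUC1, a membrane mucin of urothelium, rose from 53.0, 121 and 90.2 to 238, 405 and 341 CPM (log2 fold change 1.90, SE 0.26, adjusted p = 0.00109). The MUC1 call was lost without number 13 (adjusted p = 0.0804). COL4A1, a basement membrane collagen, rose from 0.167, 0 and 0.150 to 7.25, 5.21 and 11.8 CPM (log2 fold change 5.99, SE 0.54), whereas COL11A1 and COL1A1 fell (COL1A1 lost its call without any of 3 libraries, adjusted p up to 0.0852) and the list of 25 collagen chains had a median of -0.17, with 2 higher and 6 lower under the block. ZEB1, a transcription factor that represses epithelial genes, was at 0.891, 0.758 and 0.627 CPM untreated and 1.86, 2.95 and 6.02 CPM with IFNγ (log2 fold change 2.31, SE 0.48, adjusted p = 0.0153). Its treated libraries spread 3.2-fold, and its call was lost without IFNγ library 13 or untreated library 13 (adjusted p up to 0.159). Of 18 mesenchymal genes tested, ACTA2 and ZEB1 rose, FBN1 and S100A4 fell, and the median was -0.45, or -0.29 with POSTN, which had no count with IFNγ, at its bound. With the block 2 were higher and 7 lower. HSPA5, the chaperone BiP of the endoplasmic reticulum, rose from 957, 751 and 1069 to 2733, 2313 and 2638 CPM (log2 fold change 1.47, SE 0.13), and of 14 genes of the amino acid stress response DDIT3, ATF3 and CEBPB rose and SLC7A5 fell (median 0.30, with the block 8 higher and 2 lower). CEBPB lost its call without any of 4 libraries (adjusted p up to 0.101) and in the fit of all 12. Of 16 feedback targets of the ERK pathway 3 rose (DUSP5, DUSP6 and PHLDA1) and none fell without the block, with a median of -0.061, and with it 6 were higher and 2 lower. PHLDA1 lost its call without untreated library 11 or IFNγ library 11 or 13 (adjusted p up to 0.121) and in the fit of all 12 libraries (0.265), and DUSP5 without untreated library 11 or 12 (up to 0.0849) and in that fit (0.209).

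The repressed genes were more often protein coding than the genes tested, 96.4% against 59.1%, and started from a higher level, with a median of 60.2 CPM untreated against 2.95 CPM over all genes tested. Their median exon length was 6108 bases, against 3395 bases over all genes tested. A decrease can pass the test only with enough untreated counts. No comparison with genes of a matched level was made, so these differences are not read as a property of repression. The 10 largest decreases among genes with more than 3 counts in some library of both groups, and without overlap, were TEK, COL11A1, FREM2, TM4SF1, CTAGE1, ADORA1, INSL4, FBN2, AC068756.1 and P2RY2. TEK (chr9:27109141-27230174, plus strand), the angiopoietin receptor TIE2, was at 7.13, 7.05 and 4.69 CPM untreated and 0.651, 0.907 and 0.483 CPM with IFNγ (log2 fold change -3.33, SE 0.38, adjusted p = 0.000228). The call held without any single library but not in a fit with all 12 libraries (adjusted p = 0.133). Each of the other 6 endothelial genes tested had a mean below 1 CPM in both groups. FREM2 (chr13:38687077-38887131, plus strand), a basement membrane protein, fell from 24.2, 27.0 and 18.8 to 3.72, 1.13 and 3.17 CPM (log2 fold change -2.98, SE 0.29, adjusted p = 6.08e-05). P2RY2, a receptor for ATP and UTP, fell from 37.3, 58.9 and 38.8 to 9.20, 9.97 and 11.5 CPM (log2 fold change -2.12, SE 0.20, adjusted p = 5.29e-05). FBN2 fell by 2.25 (SE 0.38), and its relative FBN1, a fibrillin of elastic microfibrils, fell from 328, 327 and 341 to 157, 102 and 127 CPM (log2 fold change -1.36, SE 0.14, adjusted p = 0.000104). These 4 calls held without any single library. The calls of COL11A1, TM4SF1, CTAGE1, ADORA1, INSL4 and AC068756.1, at a mean of 3.39 CPM or less untreated, were each lost when 1 library was left out, with adjusted p up to 0.0695 for COL11A1 (untreated library 11 or IFNγ library 11), 0.0634 for ADORA1 (IFNγ library 13), 0.206 for TM4SF1, 0.193 for CTAGE1, 0.141 for INSL4 and 0.211 for AC068756.1 (5 or 6 of the 6 libraries). In the fit of all 12 libraries ADORA1 (0.0519), INSL4 (0.128) and TM4SF1 (0.11) were lost too.

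By loss in CPM, the genes that fell most were DST, SLC7A5, THBS1, RDH10, TFRC, S100A6, DSG1, CENPF, SPRR3 and ANLN. SLC7A5, a transporter of large neutral amino acids including tryptophan, went from 1184, 1312 and 1448 to 809, 616 and 831 CPM (log2 fold change -0.81, SE 0.13, adjusted p = 0.00239). TFRC, the transferrin receptor, went from 805, 809 and 753 to 463, 498 and 415 CPM (log2 fold change -0.78, SE 0.10, adjusted p = 0.000481). RDH10, a retinol dehydrogenase, fell from 635, 479.6 and 480.1 to 270.2, 129.9 and 143 CPM (log2 fold change -1.55, SE 0.24). S100A6 fell by 0.71 (SE 0.13) and its neighbour in the family S100A4, a gene of motile cells, from 142, 142 and 107 to 56.7, 45.3 and 34.6 CPM (log2 fold change -1.52, SE 0.18, adjusted p = 0.000317). THBS1, or thrombospondin 1, fell from 884, 617 and 1126 to 451, 249 and 515 CPM (log2 fold change -1.11, SE 0.25, adjusted p = 0.0256) and lost its call without untreated library 11 or 13 (adjusted p up to 0.118) and in the fit of all 12 libraries (0.162). DST, a linker of hemidesmosomes, differed little in size, from 3143, 2854 and 2760.4 to 2354, 2122 and 2206 CPM, and lost its call without any of 4 libraries (adjusted p up to 0.116). In a fit without number 13, of these 10 genes 1 kept its call (TFRC).

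**Figure D5:**
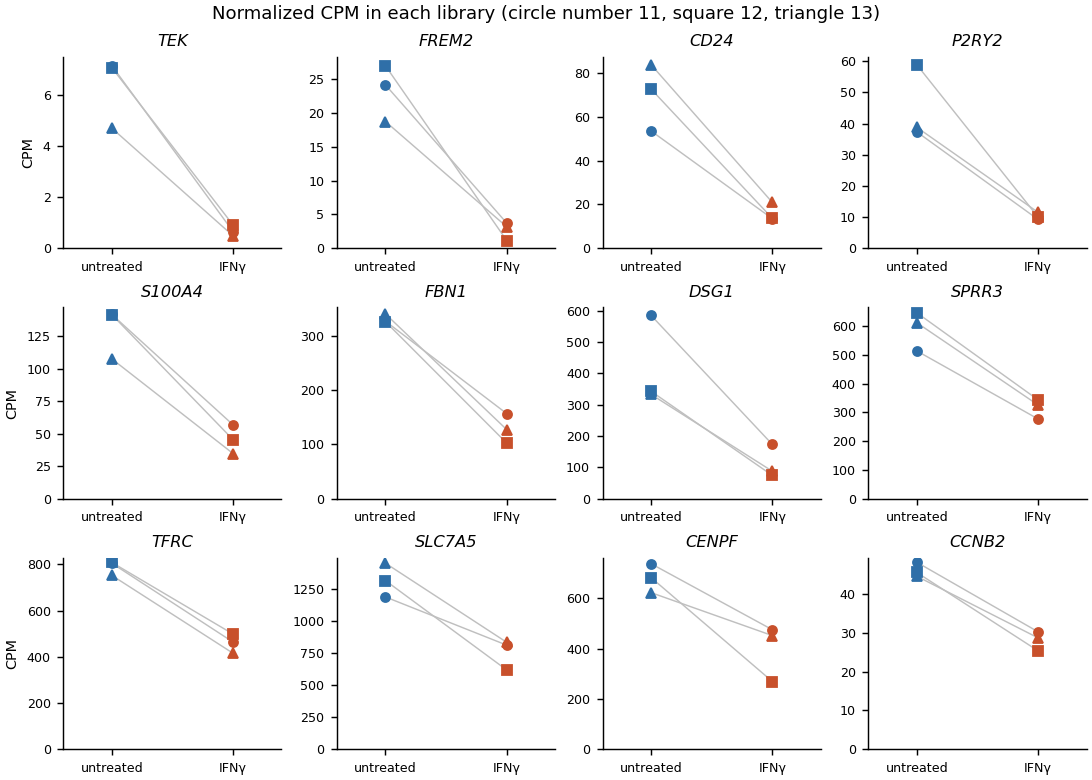
Normalized CPM of 12 repressed genes in each library (vertical, from 0), untreated in blue and IFNγ in orange, with lines joining libraries of the same number. All lines fall; for TEK and FREM2 the IFNγ libraries are at or below 3.72 CPM, and for CENPF IFNγ library 12 is the lowest.

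Genes of squamous and urothelial differentiation moved in a minority of cases. Of 24 basal and squamous markers 5 fell (ITGA6, IVL, SPRR1B, KRT13 and KRT16), 1 rose (EGFR) and the median was -0.27. With the block 11 were lower and 5 higher, or 10 and 3 with the bias-adjusted deviance added. SPRR1B, a precursor of the cornified envelope, was at 273, 274 and 279 CPM untreated and 160.0, 187 and 186 CPM with IFNγ (log2 fold change -0.63, SE 0.10, adjusted p = 0.00276). SPRR3 of the same family, outside the list, fell from 514, 647 and 612 to 277, 344 and 326 CPM (log2 fold change -0.91, SE 0.12). In the fit of all 12 libraries SPRR1B (adjusted p = 0.408) and SPRR3 (0.209) lost their calls. DSG1, a desmosomal cadherin of upper squamous layers and also outside the list, went from 584, 342 and 332 to 173, 73.7 and 87.1 CPM (log2 fold change -1.91, SE 0.30, adjusted p = 0.00267). KRT13 fell by 0.94 (SE 0.19, adjusted p = 0.0144), a call lost without untreated library 11 or IFNγ library 13 (adjusted p up to 0.0731). IVL, KRT16, ITGA6 and EGFR each lost the call without 4 or 5 of the 6 libraries (adjusted p up to 0.136, 0.246, 0.157 and 0.0804), and KRT16 (0.193) and EGFR (0.161) lost it in the fit of all 12 as well, and KRT16 also with filterByExpr (0.0561), upper-quartile normalization (0.0503) and the bias-adjusted deviance (0.05001). Of 16 luminal markers PPARG, a nuclear receptor of urothelial differentiation, was called lower, from 22.1, 17.4 and 17.9 to 13.2, 7.25 and 9.62 CPM (log2 fold change -0.90, adjusted p = 0.0332), and leaving out any library but IFNγ library 11 ended that call (adjusted p up to 0.145). With the block 5 luminal markers were lower and 1 higher, the latter not with the bias-adjusted deviance added. GATA3 differed by -0.26 (SE 0.14, adjusted p = 0.365) and was called lower with the block (0.00469). Of 20 epithelial junction genes CLDN1 rose, by 0.58 (SE 0.13, adjusted p = 0.0215), a call lost without untreated library 11 or 12 or IFNγ library 13 (adjusted p up to 0.0996) and in the fit of all 12 libraries (0.235). None fell without the block, and 9 were lower with it. CDH1, or E-cadherin, was at 368, 338 and 378 CPM untreated and 371, 389 and 382 CPM with IFNγ (log2 fold change 0.07, SE 0.09, adjusted p = 0.759). Of 13 TGF-β targets THBS1 was lower, and with the block 6 were lower and 3 higher (list median -0.54).

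Few proliferation genes passed the edgeR test. Of 40 genes of the cell cycle and DNA replication 5 fell (E2F2, CENPF, BIRC5, CCNB2 and GINS2) and none rose, a share of 12.5% beside 1.82% of all genes tested, with a list median of -0.33. A decrease passes only with enough untreated counts, and no genes of a matched level were compared, so this share is not read as an excess. The other 35 had no call in edgeR, and members ran from -0.95 to 0.26 on the log2 scale. DESeq2 called 9 of the 40 lower and none higher, and at an unadjusted p under 0.05 there were 20 lower. With the block 23 were lower and 1 higher. Their summed level was 8557, 7653 and 8084 CPM in untreated libraries 11, 12 and 13 and 7092, 5305 and 6509 CPM with IFNγ, so that the treated libraries lay below the untreated ones and number 12 was lowest in both groups. CCNB2, a mitotic cyclin, was at 48.3, 45.7 and 44.7 CPM untreated and 30.3, 25.4 and 28.7 CPM with IFNγ (log2 fold change -0.71, SE 0.13, adjusted p = 0.00581). Its call was lost without number 11 or number 13 (adjusted p up to 0.128). ANLN, a scaffold of the cleavage furrow outside the list, fell from 756, 841 and 756 to 539, 510.4 and 499 CPM (log2 fold change -0.60, SE 0.09, adjusted p = 0.00199). CENPF fell from 738, 683 and 623 to 475, 269 and 452 CPM (adjusted p = 0.0277), BIRC5, or survivin, from 107, 88.1 and 108 to 70.2, 40.3 and 67.5 CPM (adjusted p = 0.0354), and GINS2 from 43.7, 41.6 and 43.0 to 32.4, 29.2 and 28.1 CPM (adjusted p = 0.0317). CENPF, BIRC5 and GINS2 lost their calls without 3 or 4 of the 6 libraries, untreated libraries 11 and 13 and IFNγ library 13 among them for each (adjusted p up to 0.103, 0.138 and 0.138), and E2F2 without IFNγ library 13 (0.0594). MKI67, the gene of the Ki-67 antigen, was at 1733, 1514 and 1574 CPM untreated and 1349.5, 832 and 1259.5 CPM with IFNγ (log2 fold change -0.49, SE 0.15, adjusted p = 0.106, with the block 2.78e-20, and without IFNγ library 11 0.0482). TOP2A, which untangles DNA before division, was at 696, 571 and 620.1 and 543, 232 and 441 CPM (adjusted p = 0.17, with the block 5.23e-27, and without IFNγ library 11 0.0411). Both also passed with a filter at 1 count. Of 12 cell cycle inhibitors 1 fell, CDKN2C, from 20.6, 18.5 and 17.1 to 8.65, 8.39 and 5.75 CPM (log2 fold change -1.33, SE 0.20, adjusted p = 0.00212), and with the block 5 were higher and 2 lower. In these bulk libraries fewer cycling cells and less RNA per cell cannot be told apart.

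Housekeeping and metabolic lists were read last. None of 32 cytosolic ribosomal protein genes passed the test (edgeR), with a median of -0.069 and values between -0.27 and 0.16, and with the block 6 were lower. None of 13 mitochondrial genes of the respiratory chain passed (median 0.11), and with the block 5 were higher and 1 lower, or 2 and 0 with the bias-adjusted deviance added. At an unadjusted p under 0.05, 3 ribosomal and 0 mitochondrial genes passed, and DESeq2 called none of either list. Of 19 cholesterol synthesis genes MVK, or mevalonate kinase, fell from 17.7, 22.1 and 17.6 to 10.4, 8.61 and 11.0 CPM (log2 fold change -0.91, SE 0.18, adjusted p = 0.0106), but not in the fit of all 12 libraries (0.0769), and the median was 0.018, with 3 higher and 5 lower under the block. Of 24 glycolysis and hypoxia genes ENO1 rose (log2 fold change 0.53, SE 0.10, adjusted p = 0.0116) and lost its call without untreated library 13 (adjusted p = 0.062) and in the fit of all 12 libraries (0.252), while with the block 10 were higher and 1 lower.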

How the data were processed

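RNA-seq was done on 12 HT1376 libraries (TRIzol, depletion of ribosomal RNA, KAPA RNA HyperPrep, paired reads of 150 bases). The authors aligned the reads to GRCh38 (Ensembl 103) with STAR, version 2.7.11a in the submitters' processing notes, used Kraken to discard reads of Mycoplasma, and ran htseq-count. The deposited values are raw counts for each gene. Groups follow the labels, 6 of the 12 libraries entered the main comparison, and no column was left unmapped. A gene was tested when its counts summed to 10 or more over the 6 libraries. Groups were compared in edgeR 4.0.16 (R 4.3.3) by its quasi-likelihood test (TMM normalization, package defaults, Benjamini-Hochberg adjustment over the 24416 genes tested, threshold 0.05), and SE came from its F statistic. The 2701 entries without a symbol kept their Ensembl ID and held 0.100% to 0.112% of counts. Intervals and floors (3 counts per library) cover counting error only, since reads carry no molecular identifiers. The scripts were tested on simulated counts.

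The labels give both groups the numbers 11, 12 and 13. Over genes, deviations from the group mean correlated at 0.153 to 0.169 between libraries of the same number and at -0.117 to -0.029 between different numbers, so the numbers were taken as pairs. The sources used here state no block for the study's comparison, so the fit without one was kept as the primary analysis and the block as an alternative. Libraries of a group differed by more than sampling noise, with a chi-square of 7.63 to 15.1 per degree of freedom.

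Members, gene lists and rules were chosen with earlier results of these data known. By rule the text names the 10 largest increases and decreases in log2 fold change among called genes whose groups do not overlap and that exceed 3 counts in some library of both groups, the 5 called genes at the untreated floor with the highest CPM under IFNγ, the 10 largest gains and losses in mean CPM, members that describe a list, the called gene of highest CPM in each size class, and 8 genes that the study names. Other genes named were chosen after their values were seen. Alternatives were other normalizations and filters, DESeq2 1.42.0, the bias-adjusted deviance of edgeR, the replicate block, a fit of all 12 libraries, a fold threshold, and leaving out each library or number. Positions come from GENCODE 44 and promoters from RefSeq (GRCh38.p14). Some genes that these rules name are not reported here.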

Additional observations from a re-analysis of the deposited data

How the results depend on the processing

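The count of 1307 genes moved by more than 1.5 times under some settings. With the replicate block it was 4530 (2118 higher, 2412 lower), and 4102 (2079 higher, 2023 lower) when the bias-adjusted deviance was added to that block. Each of the 1307 genes kept its call in both. A filter at 1 count gave 2248 genes, 982 of them lower. An absolute log2 fold change over 1 left 679 (570 higher, 109 lower). Leaving out 1 library or 1 number, which leaves fewer samples, gave 370 to 1201 genes, with 340 to 793 higher and 30 to 408 lower. The other normalizations, filterByExpr, DESeq2 (1793), the bias-adjusted deviance alone (1427) and the fit of all 12 libraries (1335) stayed within 1.5 times.

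Of 201 genes examined singly, 166 were called. Of these, 96 kept the call under every alternative run and 70 lost it under at least 1, 50 of them only where libraries were left out. The fit of all 12 libraries ended 18 calls. Losses without a whole number are given in the text for some genes only. CX3CL1, HLA-DQA2, ICAM4 and IRF8 did not pass filterByExpr, and IRF8 was not tested without IFNγ library 13 or number 13. The block ended none of the 166 calls and added 23 among the 35 genes not called. Direction changed in 18 cases over 9 genes, none of them called, each time where libraries were left out, and the cause was not tested. The values without each library or number ran from -0.11 to 1.63 for CXCL8, -0.231 to 0.0449 for GAPDH, -0.17 to 0.24 for IFITM2, -0.0284 to 0.230 for IFNGR2, -0.163 to 0.0435 for JAK1, -0.0873 to 0.048 for KRT18, -0.77 to 0.60 for KRT5, -0.0351 to 0.166 for KRT8 and -0.17 to 0.44 for RFXAP. Depth limits genes near 0, since the floor of 3 counts was worth 0.0752 to 0.680 CPM.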

Other observations

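The genes given here lie outside the lists, apart from FN1, which is a mesenchymal marker, and they were chosen after their values were seen. UBD, a ubiquitin-like protein of the immune proteasome route, had no untreated count and 109, 136 and 580 counts with IFNγ, at least 153-fold higher against 3 counts in each untreated library.

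Among repressed genes, CD24, a glycoprotein of the cell surface, fell from 53.6, 72.7 and 83.9 CPM in untreated libraries 11, 12 and 13 to 13.5, 13.6 and 20.9 CPM with IFNγ (log2 fold change -2.10, SE 0.21, adjusted p = 8.17e-05). WNT10A, a Wnt ligand, fell from 10.9, 16.8 and 20.7 to 2.51, 4.53 and 5.37 CPM (log2 fold change -1.95, SE 0.31), and TGFB2, a TGF-β ligand, from 54.5, 51.5 and 56.9 to 28.1, 30.1 and 27.5 CPM (log2 fold change -0.93, SE 0.12). AGR2, a disulfide isomerase of secretory cells, fell from 16.5, 15.9 and 14.9 to 6.97, 2.04 and 4.78 CPM (log2 fold change -1.69, SE 0.30). ULBP3, a ligand of the natural killer receptor NKG2D, fell from 25.2, 17.0 and 20.0 to 11.1, 7.48 and 7.90 CPM (log2 fold change -1.22, SE 0.21, adjusted p = 0.0054). These 5 calls (edgeR) held without any single library, and in a fit without number 13 CD24 alone of them kept it. FN1, or fibronectin, had overlapping groups, at 219, 1102 and 1436 CPM untreated and 129, 577 and 717 CPM with IFNγ. It was lower with IFNγ in each number and did not pass the edgeR test (log2 fold change -0.95, SE 0.62, adjusted p = 0.48). FN1 passed with the block (adjusted p = 4.52e-49, a value whose size is not read as strength), with a filter at 1 count and without number 11.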
